A study of Mus musculus with 4 samples.

Results

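The potassium channel genes of the mouse were described in sorted embryonic retinal cells. They were taken as every array feature whose annotation names exactly 1 gene symbol beginning with Kcn, which gave 94 features for 91 genes out of 18920 genes with a feature of their own. Of the 91 genes, 88 code for proteins and 3 are antisense RNAs (Kcnd3os, Kcnmb4os1 and Kcnmb4os2). For the 3 genes with 2 features (Kcna2, Kcnh8 and Kcnma1), the feature with the higher mean over the arrays was kept. The groups were EGFP-positive and EGFP-negative retinal cells, both sorted at day E17.5 of embryonic development from BAC-Crx-EGFP mice on a 129Sv/Ev background, with 2 samples and so 2 Affymetrix arrays each. Both fractions therefore carry the same transgene, in which a bacterial artificial chromosome places the enhanced green fluorescent protein under regulatory sequences of the photoreceptor gene Crx. The study's stated interest is Crx in developing cone precursors; Crx itself was not perturbed, and the comparison sets cells with an active Crx reporter against the remaining retinal cells. Nothing in the labels ties the replicates to different animals or sorting runs. A p-value here therefore reflects the spread of these 4 arrays alone, and that spread may be technical.

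Potassium channels let potassium ions leave or enter the cell and thereby set the resting potential and shape voltage responses. Voltage-gated pores (the Kcna, Kcnb, Kcnc, Kcnd, Kcnh and Kcnq families) open on depolarisation, and the Kcnf, Kcng, Kcns and Kcnv families are modifier subunits that form no working channel alone but join Kcnb subunits. Kcnab, Kcne and Kcnip proteins are auxiliary subunits, Kcnm, Kcnn and Kcnt channels respond to intracellular calcium or sodium, Kcnj channels are inward rectifiers and Kcnk channels carry leak currents. In mature photoreceptors a potassium current of the inner segment, carried by complexes of Kcnb and Kcnv2 subunits, sharpens the light response, and in humans loss of KCNV2 causes a cone dystrophy.

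Each array value is a normalised intensity on a linear scale, differences are log2 EGFP-positive minus log2 EGFP-negative with limma's moderated standard error (SE), and a gene was called when its p, adjusted by Benjamini-Hochberg over all 22431 features, was under 0.05. Intensities of different features are not comparable as levels, and the table holds no detection call. In sorted bulk samples a larger share of expressing cells and more RNA per cell cannot be told apart. All 7 of 7 photoreceptor precursor markers, Crx among them, were called higher in the EGFP-positive fraction. Of 6 progenitor markers, 5 were lower there without overlap and 1, Sox2, was called lower. Of 6 amacrine cell markers, 2 were also called higher in the EGFP-positive fraction, Tfap2a (1.12 ± 0.14, limma adjusted p = 0.0429) and Tfap2b (1.06 ± 0.12, adjusted p = 0.0399). No marker of the 11 cell type lists read 0 on any array, but neither did any other feature. A reading above 0 therefore does not show that a marker was detected.

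Kcnb2, Kcnv2 and Kcnma1 rose in the EGFP-positive fraction, by 2.52-fold, 2.0-fold and 1.99-fold (limma). They were the 3 of 91 potassium channel genes called, against 0.820% of all features called higher, and the 3 make up 3.30% of the family. None was called lower by limma, against 0.143% of all features. At an unadjusted p under 0.05 limma had 10 genes higher, or 11.0% against 9.34% of all features, and 0 lower, against 9.83% of all features. The fractions did not overlap with the EGFP-positive one higher for 24 genes (26.4%, against 22.3% of all features) and with it lower for 10 genes (11.0%, against 25.3%). Over the 91 genes the median log2 difference was 0.05, and over all features it was -0.01. For 70 of the 91 genes the difference was under 0.25 in size.

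**Figure D1:**
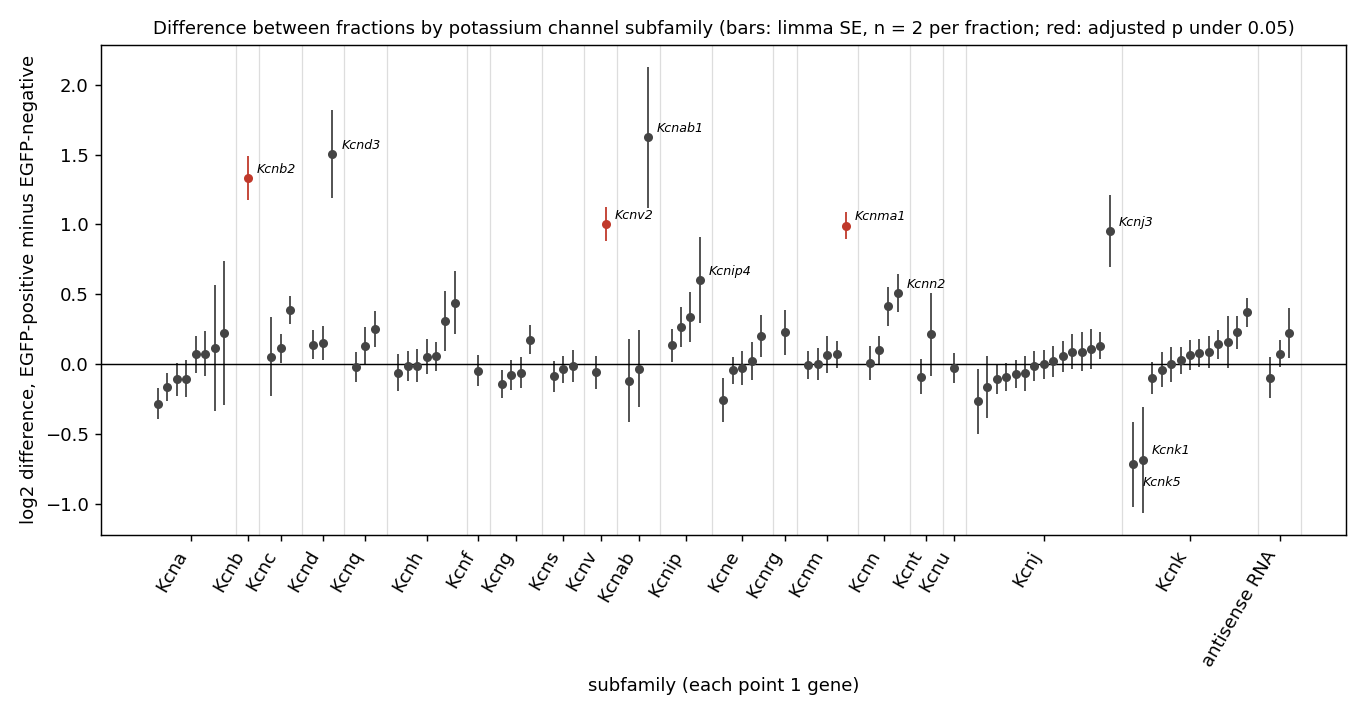
Log2 difference between EGFP-positive and EGFP-negative cells (vertical axis) for each of the 91 potassium channel genes, grouped by subfamily (horizontal axis), with limma's SE as bars and called genes in red. Most genes lie near 0, and the 8 genes above 0.5 belong to 8 subfamilies.

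Promoter windows from RefSeq are shown for Kcnma1, a called gene, and for Kcnd3 and Kcnj3, which had large differences without a call. Each of these genes had 1 window in the table. Kcnab1 had 3 windows and Kcnip4 had 2, all without either motif searched below, and they are not printed. No window is shown for Kcnb2 and Kcnv2. Each window runs from 250 bases before to 50 bases after the transcription start in GRCm38.p6. Capitals mark CAGCTG, an E-box of the kind bound by proneural factors, and the same search covered TAATCC, the core bound by Crx and Otx2, on both strands; CAGCTG is its own reverse complement.
Kcnma1, chr14:24004156-24004455, minus strand: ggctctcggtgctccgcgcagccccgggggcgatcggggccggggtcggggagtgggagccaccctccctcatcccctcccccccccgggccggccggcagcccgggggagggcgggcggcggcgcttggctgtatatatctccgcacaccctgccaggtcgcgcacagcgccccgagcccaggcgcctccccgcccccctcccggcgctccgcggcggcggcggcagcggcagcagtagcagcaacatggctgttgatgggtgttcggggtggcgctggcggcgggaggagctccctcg
Kcnd3, chr3:105451640-105451939, plus strand: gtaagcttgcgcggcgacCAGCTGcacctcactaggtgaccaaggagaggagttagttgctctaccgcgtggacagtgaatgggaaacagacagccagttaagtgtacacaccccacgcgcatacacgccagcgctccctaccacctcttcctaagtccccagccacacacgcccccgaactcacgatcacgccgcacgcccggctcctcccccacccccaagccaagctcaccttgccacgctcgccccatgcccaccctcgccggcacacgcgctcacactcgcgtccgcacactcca
Kcnj3, chr2:55435720-55436019, plus strand: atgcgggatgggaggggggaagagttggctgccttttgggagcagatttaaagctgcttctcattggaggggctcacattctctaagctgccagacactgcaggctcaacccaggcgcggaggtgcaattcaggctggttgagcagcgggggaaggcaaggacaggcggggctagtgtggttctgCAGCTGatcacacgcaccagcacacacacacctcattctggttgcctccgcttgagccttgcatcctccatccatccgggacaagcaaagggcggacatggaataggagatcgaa
CAGCTG began 232 bases before the start site of Kcnd3 and 65 bases before that of Kcnj3, and the Kcnma1 window held neither motif. Of 32851 windows in the table, 16.3% held CAGCTG and 7.06% held TAATCC. Of the 94 windows that matched 69 potassium channel genes, 25.5% held CAGCTG and 3.19% held TAATCC, the last in the windows of Kcng4, Kcnj9 and Kcnrg. A match describes the letters of the window and is no binding site.

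Among voltage-gated pores, Kcnb2 was the 1 called of 25 genes. Kcnb2 (feature 10344935, Entrez gene 98741) encodes a delayed-rectifier pore that can join Kcnv2. It read 344.5 and 454.3 in the EGFP-positive replicates, against 155.1 and 159.5 in the EGFP-negative ones. Both EGFP-positive arrays were far above both EGFP-negative arrays. As log2 intensity this was 8.63 ± 0.28 against 7.30 ± 0.03 (SD, n = 2 each), a difference of 1.33 ± 0.16 (SE, limma adjusted p = 0.0408, 95% interval 0.93 to 1.73).

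Kcnd3, the pore of a rapidly inactivating current, showed the second largest difference in the family and was not called. It read 618.0 and 1197.3 in EGFP-positive cells, against 289.8 and 317.4 in EGFP-negative cells. The fractions did not overlap, and EGFP-positive replicate 2 lay far above replicate 1. The difference was 1.5 ± 0.31 (adjusted p = 0.0949). Wherever 1 array is left out, its fraction has 1 array, which is assumed to vary like the 2 arrays of the other fraction, so a p from such a fit is no evidence beyond that assumption. Without EGFP-positive replicate 1 it was 1.98 (adjusted p = 0.00433), and without replicate 2 it was 1.03 (adjusted p = 0.0614). Its antisense partner Kcnd3os, whose RefSeq gene spans the Kcnd3 start site, read 346.3 and 359.9 against 426.2 and 334.6, so the fractions overlapped for the antisense RNA (-0.10 ± 0.15). The other Kcnd genes encode pores of the same current. Kcnd1 read 166.3 and 178.0 against 156.8 and 155.5 (0.14 ± 0.10), and Kcnd2 read 130.8 and 149.6 against 132.4 and 119.9 (0.15 ± 0.12).

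Of the Kcnc genes, which encode pores of fast-spiking neurons, none of 3 was called by limma and 1 had an unadjusted p under 0.05. Kcnc1 read 217.7 and 230.0 in EGFP-positive cells and 173.0 and 169.9 in EGFP-negative cells. The arrays of each fraction lay close together and apart from the other fraction, with a difference of 0.38 ± 0.10 (adjusted p = 0.134). Kcnc2 behaved differently, since its highest and its lowest array were both EGFP-positive: it read 516.2 and 286.2, against 350.7 and 391.6 in EGFP-negative cells (0.05 ± 0.28). Kcnc4 read 181.9 and 179.0 against 173.7 and 160.6.

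Shaker-type Kcna genes, pores of low-threshold currents in axons and immune cells, had differences from -0.28 to 0.22, and none of 8 was called or had an unadjusted p under 0.05 (limma). Kcna3 showed the largest difference toward the EGFP-negative fraction. It read 282.1 and 248.1 in EGFP-positive cells, against 326.9 and 316.8 in EGFP-negative cells, without overlap (-0.28 ± 0.11, adjusted p = 0.265). Kcna2 read 179.4 and 192.3 against 209.2 and 207.6 (-0.17 ± 0.10), and its second feature differed by -0.34 ± 0.15. Both features of Kcna2 were lower in EGFP-positive cells on all arrays, without a call. Kcna1, mutated in human episodic ataxia, read 189.7 and 159.5 against 197.4 and 177.3, and its fractions overlapped (-0.11 ± 0.13).

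Kcna5 and Kcna6 separated the replicates rather than the fractions. Kcna6 read 343.3 and 119.7 in EGFP-positive cells, against 215.8 and 139.5 in EGFP-negative cells (0.22 ± 0.52, 95% interval -1.08 to 1.53). Kcna5 read 218.0 and 98.0 against 181.2 and 100.9 (0.11 ± 0.45, 95% interval -1.03 to 1.25). In both genes replicate 1 of either fraction lay above replicate 2 of either fraction.

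The Kcnh and Kcnq genes gave no call among 7 and 3 genes, and none had an unadjusted p under 0.05 (limma). Kcnh8, a pore of the elk group, read 312.3 and 456.4 in EGFP-positive cells, against 245.2 and 316.5 in EGFP-negative cells (0.44 ± 0.22, adjusted p = 0.385). EGFP-positive replicate 1 lay below EGFP-negative replicate 2, so the fractions overlapped. With 1 array left out the difference was lowest without EGFP-positive replicate 2 (0.16) and highest without EGFP-positive replicate 1 (0.71). The second feature of Kcnh8 differed by 0.17 ± 0.22, and the mean of both features by 0.30. Kcnh7, of the erg group, read 151.0 and 205.6 against 122.1 and 165.9 (0.31 ± 0.22), again with overlap and a range from 0.085 to 0.53 with 1 array left out, the lowest without EGFP-positive replicate 2 and the highest without EGFP-positive replicate 1. Kcnh1, the eag channel, read 138.7 and 150.1 against 135.8 and 142.1 (0.05 ± 0.10, 95% interval -0.21 to 0.32). Kcnh2, the erg channel of the heart, read 382.4 and 404.4 against 347.4 and 413.6 (0.05 ± 0.13, 95% interval -0.27 to 0.37). The fractions overlapped for both. Kcnq5, a subunit of the muscarine-sensitive M current, read 142.3 and 129.5 against 105.1 and 123.6 without overlap (0.25 ± 0.13, adjusted p = 0.377). Kcnq3, another M current subunit, read 127.3 and 158.3 against 129.2 and 130.9 (0.13 ± 0.14), and Kcnq1 read 159.4 and 173.7 against 174.1 and 163.6.

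Kcnv2 was the 1 called of 10 modifier subunit genes. Kcnv2 (feature 10462303, Entrez gene 240595) read 326.9 and 285.4 in EGFP-positive cells, against 159.6 and 145.7 in EGFP-negative cells. The spread within each fraction was small beside the gap between them: log2 intensity was 8.25 ± 0.14 against 7.25 ± 0.09 (SD, n = 2 each). The difference was 1.0 ± 0.12 (limma adjusted p = 0.0421, 95% interval 0.70 to 1.31). Without EGFP-positive replicate 2 the adjusted p was 0.0507.

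The other 9 modifier genes had differences from -0.14 (Kcng2) to 0.18 (Kcng3), and none of them was called. Kcng3 read 133.5 and 145.9 in EGFP-positive cells, against 125.0 and 122.2 in EGFP-negative cells (0.18 ± 0.10, adjusted p = 0.462). Kcng2 read 298.3 and 308.7 against 341.1 and 329.0 (-0.14 ± 0.10, adjusted p = 0.542). Both genes separated the fractions without overlap, in opposite directions. Kcnv1, the other Kcnv gene, read 93.5 and 99.1 against 107.5 and 93.6. Kcnf1 read 144.6 and 127.8 against 138.9 and 142.4, and the 3 Kcns genes had intensities from 89.1 to 202.7 in EGFP-positive cells and from 83.8 to 211.1 in EGFP-negative cells. Within the modifier group, the difference between Kcnv2 and the others was not tested.

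**Figure D2:**
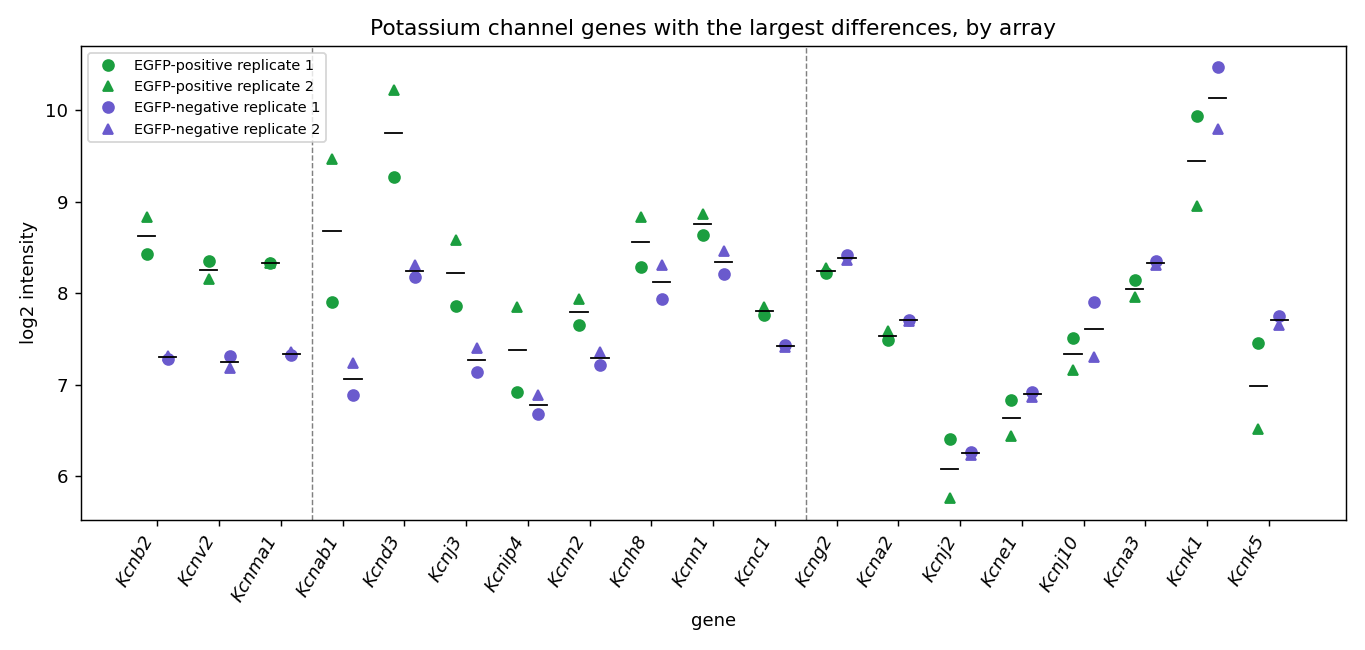
Log2 intensity (vertical axis) on each array for the 3 called genes (left), the 8 largest positive differences not called (middle) and the 8 largest negative differences (right). Circles and triangles are replicates 1 and 2, EGFP-positive (green) left of EGFP-negative (purple), and black bars are means; EGFP-positive replicate 2 stands well above replicate 1 for Kcnab1, Kcnd3, Kcnj3 and Kcnip4.

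Kcnma1 was called among 5 genes for the large-conductance calcium-activated channel. Kcnma1 (feature 10418053, Entrez gene 16531) encodes the pore. It read 321.5 and 322.2 in EGFP-positive cells, against 159.9 and 164.0 in EGFP-negative cells. The 2 arrays of a fraction were nearly equal, and log2 intensity was 8.33 ± 0.0022 against 7.34 ± 0.03 (SD, n = 2 each). The difference was 0.99 ± 0.10 (limma adjusted p = 0.0276, 95% interval 0.75 to 1.24). Without EGFP-positive replicate 2 the adjusted p was 0.0591. A second feature annotated as Kcnma1 shared 0 accessions with the first and read 45.5 and 45.6 against 44.4 and 40.4 (0.10 ± 0.11). These readings all lay below 108.1, the lower quartile of the mean intensities of all features. The mean of both features differed by 0.55 and was not called (adjusted p = 0.0691).

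The Kcnmb genes, auxiliary beta subunits of the same channel, had differences from -0.01 to 0.07, and none of 4 was called by limma or had an unadjusted p under 0.05. Kcnmb4, the neuronal beta subunit, read 245.2 and 255.4 in EGFP-positive cells, against 234.9 and 267.3 in EGFP-negative cells. Kcnmb1 read 91.6 and 92.2 against 86.9 and 88.0, a small gap without overlap. Kcnmb2 read 113.0 and 109.4 against 110.6 and 113.0. The antisense RNAs Kcnmb4os1 and Kcnmb4os2 were not called (adjusted p = 0.613 and 0.781, limma). Kcnmb4os1 read 130.5 and 168.5 against 113.3 and 142.6, and Kcnmb4os2 read 211.7 and 214.1 against 201.9 and 202.2.

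All 4 small-conductance calcium-activated channel genes (Kcnn) had a positive difference, and none was called (2 at an unadjusted p under 0.05, limma). Kcnn2 read 201.4 and 245.0 in EGFP-positive cells, against 149.1 and 163.9 in EGFP-negative cells (0.51 ± 0.14, adjusted p = 0.142). Kcnn1 read 399.0 and 466.0 against 296.9 and 353.6 (0.41 ± 0.14, adjusted p = 0.211). In both genes the fractions stood apart, with replicate 2 above replicate 1 in each. Kcnn3 read 160.1 and 166.7 against 158.3 and 146.9, and Kcnn4, the intermediate-conductance channel, read 133.7 and 157.9 against 145.0 and 143.5. The sodium-activated channel genes gave no call either: Kcnt2 read 69.9 and 125.9 against 71.9 and 91.2 (0.21 ± 0.30), and Kcnt1 read 142.7 and 131.7 against 157.6 and 135.1. Kcnu1, a channel of sperm, read 79.8 and 82.8 against 79.4 and 86.7.

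Among auxiliary subunits, Kcnab1 had the largest difference of the family without a call. It encodes a beta subunit that speeds inactivation of Kcna pores. It read 238.8 and 706.4 in EGFP-positive cells, against 118.1 and 150.4 in EGFP-negative cells. The fractions did not overlap, but the EGFP-positive replicates were 1.56 apart on the log2 scale. The difference was 1.62 ± 0.50 (adjusted p = 0.178, 95% interval 0.35 to 2.90). Without EGFP-positive replicate 1 it was 2.41 (adjusted p = 0.00490), and without replicate 2 it was 0.84 (adjusted p = 0.159). The related genes Kcnab2 and Kcnab3 had negative differences and no call. Kcnab2 read 459.4 and 263.5 against 387.8 and 327.3 (-0.03 ± 0.28), and Kcnab3 read 259.9 and 149.5 against 249.4 and 183.6 (-0.12 ± 0.30). For both, replicate 1 of either fraction was above its replicate 2.

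The 4 Kcnip genes, calcium-binding partners of Kcnd pores, were all above 0 (median difference 0.30), with none called by limma or at an unadjusted p under 0.05. Kcnip4 read 121.3 and 229.9 in EGFP-positive cells, against 102.1 and 118.6 in EGFP-negative cells (0.60 ± 0.31, adjusted p = 0.383). EGFP-positive replicate 2 was the 1 high array. Without it the difference was 0.14 (adjusted p = 0.883), and without EGFP-positive replicate 1 it was 1.06 (adjusted p = 0.0240). Kcnip1 showed the opposite spread, with 240.2 and 173.2 against 168.3 and 154.6 (0.34 ± 0.18), and its difference was 0.10 without EGFP-positive replicate 1 and 0.57 without replicate 2. Kcnip2 read 116.8 and 128.8 against 91.9 and 113.4 (0.26 ± 0.14), with 0.11 without EGFP-negative replicate 1 and 0.42 without EGFP-negative replicate 2. Kcnip3, also a repressor of transcription, read 165.8 and 158.6 against 136.9 and 159.3 (0.13 ± 0.12). Of the 4, Kcnip3 was the gene whose fractions overlapped.

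Of 5 Kcne genes, small membrane subunits of Kcnq and Kcnh channels, none was called by limma or had an unadjusted p under 0.05. Kcne1 read 114.0 and 86.5 in EGFP-positive cells, against 120.9 and 116.8 in EGFP-negative cells (-0.26 ± 0.16, adjusted p = 0.469). Kcne1l read 290.4 and 269.9 against 275.4 and 215.2. The other 3, Kcne2, Kcne3 and Kcne4, had mean intensities under 108.1, the lower quartile of all features. Kcnrg, a cytoplasmic regulator of potassium channels, also lay in that range, with 89.0 and 108.6 against 75.3 and 93.6. In all, 16 of the 91 genes had a mean below this quartile, which is 17.6%.

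Of 15 inward rectifier genes (Kcnj), 0 were called by limma and 1, Kcnj3, had an unadjusted p under 0.05. Kcnj3 encodes a G protein-gated channel subunit that neurons use to answer inhibitory transmitters. It read 231.8 and 384.0 in EGFP-positive cells, against 140.8 and 169.2 in EGFP-negative cells, without overlap (0.95 ± 0.26, adjusted p = 0.144). Without EGFP-positive replicate 1 the difference was 1.31 (adjusted p = 0.0163), and without replicate 2 it was 0.59 (adjusted p = 0.236). Its possible partner subunits gave no such gap. Kcnj5 read 94.2 and 113.6 against 103.4 and 91.5, Kcnj6 read 78.0 and 74.6 against 79.3 and 71.5, and Kcnj9 read 156.7 and 139.1 against 139.0 and 145.4. Of the 15 Kcnj genes, 6 had a mean under 108.1, the lower quartile of all features, Kcnj5 and Kcnj6 among them. The other 14 Kcnj genes had differences from -0.27 to 0.13.

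Inward rectifiers known from glia, pigment epithelium and vessels showed small differences. Kcnj10, the main channel by which Müller glia buffer potassium, read 182.8 and 142.6 in EGFP-positive cells, against 238.6 and 158.4 in EGFP-negative cells (-0.27 ± 0.23, adjusted p = 0.645), with overlap. Kcnj16, which joins it, read 64.5 and 69.8 against 70.5 and 70.4. Kcnj13, of the retinal pigment epithelium, read 109.3 and 127.2 against 117.0 and 130.3 (-0.07 ± 0.13). Kcnj8, a pore of ATP-sensitive channels in pericytes, read 115.8 and 103.6 against 116.2 and 119.8 (-0.11 ± 0.11). None of these 4 genes was called. Kcnj14, a strong rectifier of neurons, read 145.3 and 124.9 against 133.3 and 120.6 (0.09 ± 0.13). Kcnj2, the classical strong rectifier, read 85.0 and 54.1 against 77.0 and 75.2 (-0.17 ± 0.22).

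The 13 tandem-pore leak channel genes (Kcnk) held the most negative differences of the family, again without a call; 1 gene had an unadjusted p under 0.05 (limma). Kcnk5, an acid-sensitive leak channel, read 175.3 and 91.5 in EGFP-positive cells, against 215.5 and 201.4 in EGFP-negative cells, without overlap (-0.72 ± 0.31, adjusted p = 0.296). Without EGFP-positive replicate 1 the difference was -1.19 (adjusted p = 0.0140), and without replicate 2 it was -0.25 (adjusted p = 0.610). Kcnk1, a weak inward-rectifying leak channel, read 980.8 and 496.7 against 1415.0 and 890.1 (-0.69 ± 0.38, adjusted p = 0.425). Kcnk1 was lower in EGFP-positive than in EGFP-negative cells within each replicate number, but EGFP-positive replicate 1 was above EGFP-negative replicate 2. With 1 array left out its difference ran from -1.18 without EGFP-positive replicate 1 to -0.19 without EGFP-positive replicate 2, with no call.

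Kcnk2 and Kcnk3 lay on the other side. Kcnk2, a mechanosensitive leak channel, read 255.5 and 233.5 in EGFP-positive cells, against 190.5 and 187.4 in EGFP-negative cells, without overlap (0.37 ± 0.10, adjusted p = 0.153). Kcnk3, another acid-sensitive channel, read 215.6 and 235.9 against 181.0 and 205.2 (0.23 ± 0.12, adjusted p = 0.393). Kcnk2 was the Kcnk gene with an unadjusted p under 0.05. The remaining Kcnk genes had intensities from 98.8 to 217.9 in EGFP-positive cells and from 92.0 to 199.0 in EGFP-negative cells.

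**Figure D3:**
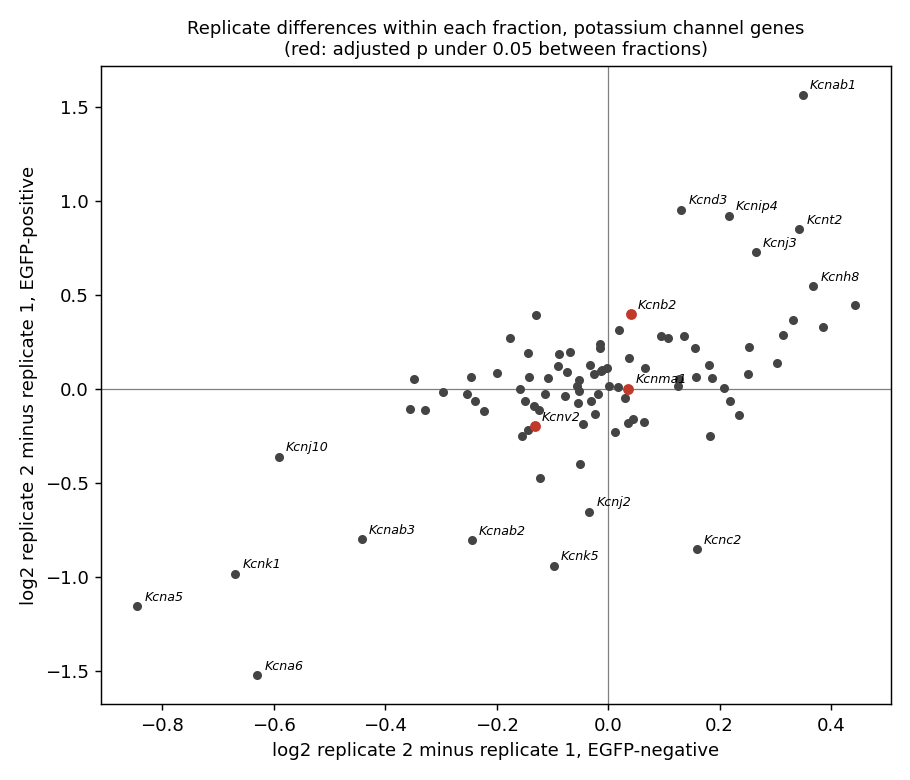
Log2 replicate 2 minus replicate 1 in EGFP-positive cells (vertical axis) against the same in EGFP-negative cells (horizontal axis) for the 91 potassium channel genes (called genes in red). Kcna5, Kcna6 and Kcnk1 were lower in replicate 2 of both fractions, and Kcnab1 was the gene farthest up.

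Several channel genes varied widely between replicates. In EGFP-positive cells the replicates differed by over 0.5 on the log2 scale for 14 of 91 genes (15.4%, against 7.02% of all features), and in EGFP-negative cells for 4 genes (4.40%, against 4.0%). Of the 14, 6 were higher in replicate 2 (Kcnab1, Kcnd3, Kcnip4, Kcnt2, Kcnj3 and Kcnh8) and 8 in replicate 1 (Kcna6, Kcna5, Kcnk1, Kcnk5, Kcnc2, Kcnab2, Kcnab3 and Kcnj2). In 13 of the 14 the EGFP-negative replicates differed in the same direction. Of all 91 channel genes, 30 were higher and 30 lower in replicate 2 of both fractions. Of all 22431 features, 6506 were higher and 7257 lower in replicate 2 of both fractions. How many of all features with a gap over 0.5 differed in the same direction in both fractions was not counted. The 13 of 14 is therefore not shown to be particular to channel genes. None of the 3 called genes was among the 14, but a wide replicate gap raises the SE and so makes a call less likely.

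Cell type markers also differed between replicates. Because features differ in brightness, each sum below follows its brightest features and is no measure of a cell type. The 4 horizontal cell markers summed to 1956.8 and 3641.1 intensity units in EGFP-positive replicates 1 and 2, against 1677.6 and 1586.4 in EGFP-negative ones, and 4 of 4 had a positive difference between fractions. The 7 ganglion cell markers summed to 3415.4 and 6090.5 against 2731.1 and 7128.0, with 3 of 7 above 0. The 5 endothelial markers summed to 3790.7 and 1724.5 against 5486.5 and 3444.1, with 3 of 5 above 0. Among the horizontal cell markers, Onecut1 (456.0 and 1003.0 against 236.0 and 372.6), Onecut2 (504.3 and 1608.4 against 300.8 and 374.5) and Lhx1 were highest on EGFP-positive replicate 2. Prox1 read 854.4 and 848.3 against 993.4 and 712.3. The ganglion cell markers Isl1 and Nefm were also highest on EGFP-positive replicate 2, Nefm by little (590.7, against 581.4 on EGFP-negative replicate 2). Pou4f1, Rbpms, Nefl, Sncg and Gap43 were highest on EGFP-negative replicate 2. Channel genes highest on EGFP-positive replicate 2 included Kcnab1, Kcnd3, Kcnj3, Kcnip4, Kcnh8 and Kcnt2. Which cells gave these high values was not tested. The endothelial sum followed Kdr (3171.2 and 1107.0 against 4888.5 and 2883.9), while Pecam1 read 110.5 and 110.4 against 110.4 and 110.4. Tek, Cdh5 and Cldn5 lay between 87.6 and 290.7 on all arrays. Kdr was the 1 of 5 endothelial markers that was higher in replicate 1 of each fraction. So were 4 of 6 progenitor markers, 30 of 91 channel genes (Kcna5, Kcna6 and Kcnk1 among them) and 7257 of 22431 features. The 6 amacrine cell markers summed to 4713.6 and 5137.9 against 3202.0 and 3117.7, with 6 of 6 higher without overlap (22.3% of all features were), and the 6 progenitor markers to 16160.4 and 12928.2 against 24681.1 and 26943.2, with 6 of 6 below 0. The part of these cells in the channel results was not tested.

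**Figure D4:**
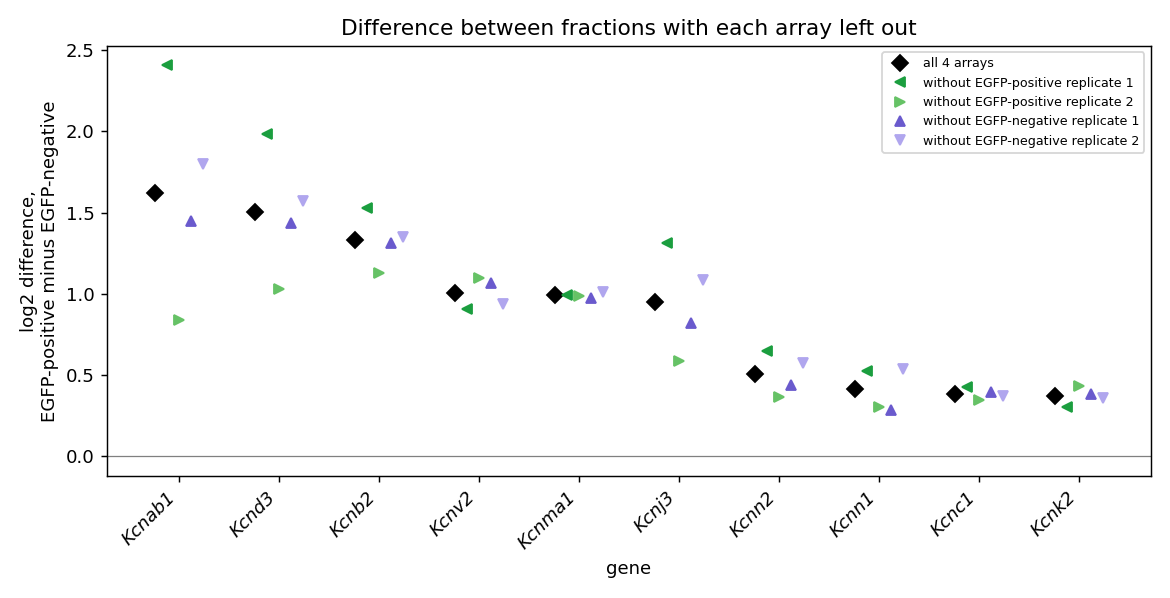
Log2 difference between fractions (vertical axis) for the 10 potassium channel genes at an unadjusted p under 0.05 (horizontal axis), with all 4 arrays (black) and with each array left out. Kcnma1 stays between 0.97 and 1.01, while Kcnab1 runs from 0.84 to 2.41.

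The size of the difference depended on single arrays for some of these genes and not for others. With each array left out in turn, Kcnma1 ranged from 0.97 to 1.01, Kcnv2 from 0.90 to 1.10 and Kcnb2 from 1.13 to 1.53. Kcnb2 was called without either EGFP-positive array. Without EGFP-negative replicate 1 or 2 none of the 3 was called, with adjusted p of 0.218 to 0.301, and limma called 0 of all features. Of the channel genes, 5 and 9 then had an unadjusted p under 0.05.

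Of 39 listed partners of potassium channels and potassium transporters, 32 had a feature, and 1 was called higher, against 0.820% of all features. Atp1b2, a beta subunit of the sodium-potassium pump that in photoreceptors anchors retinoschisin, read 3582.9 and 3116.9 in EGFP-positive cells, against 1008.5 and 724.2 in EGFP-negative cells (1.97 ± 0.19, limma adjusted p = 0.0260). Without EGFP-negative replicate 1 or 2 it was not called (adjusted p 0.110 and 0.126). Of the 32, 25 had a positive difference, 15 were higher and 5 lower without overlap (against 22.3% and 25.3% of all features), and 11 were higher and 2 lower at an unadjusted p under 0.05 (against 9.34% and 9.83%). Among the Kcnd partners, chosen after their values were seen, Dpp10 read 111.0 and 235.3 against 88.3 and 107.4 (adjusted p = 0.363) and Dpp6 read 92.9 and 99.9 against 76.6 and 78.4 (adjusted p = 0.193). EGFP-positive replicate 2 was the high array for Dpp10, as it was for Kcnd3 and Kcnip4. It was also the high array for listed genes that are not Kcnd partners. Slc24a2 read 109.3 and 257.2 against 93 and 72.2, and Hcn4 read 440.8 and 716.5 against 369.8 and 371.9. Atp1b2 was highest on EGFP-positive replicate 1.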

How the data were processed

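RNA of 2 EGFP-positive and 2 EGFP-negative samples was measured on 1 array each. The authors deposited normalised intensity values, 1 column per array; RMA and the genome build mm8 are named per the submitters' processing notes, with no version, summarisation level or filter stated there. The lowest value was 18.9 and the highest 36625.2, so a linear scale was inferred and log2 taken without a pseudocount. Array medians were 218.4 to 222.9. The number of arrays limits the precision. Of 22431 features, 20176 had 1 symbol, 412 several and 1843 none. All 91 Entrez numbers matched RefSeq (GRCm38.p6), which gave promoters and neighbours; coordinates belong to those windows.

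limma 3.58.1 in R 4.3.3 (lmFit, eBayes without a trend) compared EGFP-positive with EGFP-negative on all features, with fraction as the only term, two-sided p-values and Benjamini-Hochberg adjustment (threshold 0.05). The variance estimate had 5.26 degrees of freedom. The pipeline was tested on simulated data. Alternatives were a replicate block, each array left out, median centring, quantile normalisation, a filter at the 25th percentile, other eBayes settings, a pseudocount of 16 and the mean of features.

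The members and lists were chosen with earlier results of these data known. Genes given with all arrays were those called, the 8 largest positive and negative differences of the rest, the extremes of each subfamily and a fixed list of channels known from retina or neurons; the other members given complete their subfamilies and were picked after their values were seen. The bipolar, mural, pigment epithelium, microglia and astrocyte marker lists held 0 genes called by limma (2 at an unadjusted p under 0.05), and their summed intensities were 421.4 to 834.5 in EGFP-positive and 446.3 to 896.4 in EGFP-negative cells.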

Additional observations from a re-analysis of the deposited data

How the results depend on the processing

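In the 8 alternatives that used all 4 arrays the calls of Kcnb2, Kcnv2 and Kcnma1 held, except that Kcnma1 was lost in the mean of its features. Features called higher numbered 184 in the main fit and 0 to 667 with an array left out, and those called lower 32 and 0 to 762. Lower calls numbered 21 with an eBayes trend and 51 with the mean of features per gene. With an array left out, 0 to 7 channel genes were called higher and 0 to 1 lower, and 0 to 6 partner genes higher. Without EGFP-positive replicate 1 the 7 were the 3 called genes with Kcnd3, Kcnab1, Kcnj3 and Kcnip4, and Kcnk5 was lower; without EGFP-positive replicate 2 Kcnb2 alone was called. The fraction reduced to 1 array is assumed in these fits to vary like the other fraction. The median channel difference was 0.017 to 0.063 with an array left out and 0.079 with arrays centred on their median.

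Arrays with the same replicate number share only a number in the labels, and their deviations from the fraction means correlated at 0.48. With a replicate block limma called 1377 features higher and 1500 lower, 9 channel genes higher (the 3 with Kcnd3, Kcnab1, Kcnj3, Kcnn2, Kcnh8 and Kcnn1) and 1 lower (Kcnk1), and 6 partner genes higher and 2 lower.

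Of the 91 channel genes, 46 turned sign in at least 1 alternative, none with a difference above 0.27 in size, and 9 of them with all 4 arrays. With an array left out the difference ran from -0.23 to 0.020 for Kcna1, from -0.46 to 0.69 for Kcna5, from -0.54 to 0.98 for Kcna6, from -0.44 to 0.37 for Kcnab2, from -0.52 to 0.28 for Kcnab3 and from -0.37 to 0.48 for Kcnc2. It ran from -0.27 to 0.077 for Kcnd3os, from -0.0022 to 0.11 for Kcnh1, from -0.073 to 0.18 for Kcnh2, from -0.56 to 0.028 for Kcnj10 and from -0.18 to 0.043 for Kcnj13. For Kcnj14 it ran from -0.022 to 0.20, for Kcnj2 from -0.49 to 0.16, for Kcnq3 from -0.031 to 0.28 and for Kcnt2 from -0.21 to 0.64. The cause was not tested.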
